A study of Mus musculus with 6 samples.

Results

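The Xcr1 conventional dendritic cells of mouse dorsal skin were picked from single-cell RNA sequencing libraries by the RNA they held, and 98 of 50850 kept barcodes met the rule. A barcode had to carry at least 1 UMI (a tag that marks 1 captured RNA molecule) of Xcr1 and at least 2 UMIs of Wdfy4, Irf8, Naaa and Clec9a together. It also had to carry at least 20 UMIs per 10000 of the MHC class II genes Cd74, H2-Aa and H2-Ab1, under 20 per 10000 of the keratinocyte genes Krt5 and Krt14, and 0 UMIs of Cd3e, a T cell gene. Barcodes were kept if they held fewer than 100000 UMIs and fewer than 6500 genes, with mitochondrial RNA below 10%. The genes of the rule chose the cells, so their levels are given as a description with no test.

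The study compared 3 groups of female C57BL/6 mice aged 8 to 10 weeks, with 2 libraries in each group. The Sham group had no treatment. In the IMQ group, 62.5 mg of cream with 5% imiquimod, an agonist of the RNA sensor TLR7 that gives psoriasis-like inflammation, was put on shaved back skin once a day for 4 days, and the mice were killed 1 day after the last dose. The IMQ+SHP099 group had the same cream and also the small molecule SHP099, which blocks SHP2 (the phosphatase encoded by Ptpn11), given daily into the stomach at 10 mg/kg over 4 days. The labels give no vehicle cream for the Sham mice, so cream, shaving and imiquimod cannot be told apart. Every library held unsorted cells of the pooled skin of several mice. Mice within a library cannot be separated, and p-values measure the spread between libraries only.

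Conventional dendritic cells of type 1 (cDC1) take up dead cells and present their antigens on MHC class I to CD8 T cells, which is called cross-presentation. They depend on the transcription factors IRF8 and BATF3, find XCL1-secreting lymphocytes through the chemokine receptor XCR1, and in skin often carry the integrin CD103 (Itgae) and langerin (Cd207). Langerhans cells also carry langerin, while type 2 dendritic cells and macrophages of the dermis carry SIRPA, CSF1R or the lectins CD209A and MGL2. The gene Xcr1 lies at chr9:123852315-123862029 on the minus strand of GRCm38, Wdfy4 at chr14:32959547-33185508 (minus), Irf8 at chr8:120736358-120756694 (plus), Naaa at chr5:92257659-92278170 (minus) and Itgae at chr11:73090583-73147446 (plus). All 5 are protein-coding, and reads were counted over whole genes.

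The libraries held 7382 to 10293 kept barcodes and 53913865 to 188283327 UMIs. They differed in composition, since 6.03% to 65.3% of the kept barcodes of a library passed the keratinocyte limit and 129 to 928 were MHC class II barcodes, meaning those that met the MHC class II, keratin and Cd3e limits. Any pair of libraries shared 12 to 30 kept barcode sequences, no member barcode was a member in more than 1 library, and 3 member barcodes also occurred in another library. Sham replicate 2 stood apart: it held 83 of the 98 cells, so results on single cells are mostly results on that library.

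The number of Xcr1 dendritic cells differed more between the Sham libraries than between Sham and IMQ. Sham replicate 1 held 3 of them, Sham replicate 2 held 83, IMQ replicate 1 held 8, IMQ replicate 2 held 4, and both IMQ+SHP099 libraries held 0. As a share of MHC class II barcodes this was 1.04% in Sham replicate 1 (exact Clopper-Pearson 95% interval 0.215% to 3.00%) and 8.94% in Sham replicate 2 (7.19% to 10.97%). IMQ replicate 1 had 3.96% (1.73% to 7.65%) and IMQ replicate 2 had 1.83% (0.502% to 4.63%), so both IMQ libraries lay between the Sham libraries. In IMQ+SHP099 the count was 0 of 149 barcodes in replicate 1 and 0 of 129 in replicate 2, which allows shares of up to 2.01% and 2.33% at 3 counts.

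The mean share was 4.99% ± 5.59 (SD, n = 2) in Sham and 2.90% ± 1.503 (SD, n = 2) in IMQ. The difference of -2.09 percentage points was smaller than the spread between the Sham libraries (2-sided exact permutation test, p = 1). It turned to 1.86 points without Sham replicate 2 and was -6.05 points without Sham replicate 1. Over all kept barcodes the difference was -0.450 points (2-sided exact permutation p = 1), and outside the keratinocyte limit it was -0.551 points (p = 0.667 in the same exact test).

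Between IMQ+SHP099 and IMQ the difference was -2.90 points of the MHC class II barcodes, -0.0716 points of all kept barcodes and -0.0845 points outside the keratinocyte limit. The libraries of the groups did not overlap, and the 2-sided exact permutation p was 0.333, the smallest that 2 libraries against 2 can give. The exact 95% intervals of single libraries overlapped in every pair on the MHC class II barcodes. Over all kept barcodes IMQ replicate 1 (0.0450% to 0.205%) lay above IMQ+SHP099 replicate 1 (up to 0.0425%) and overlapped replicate 2 (up to 0.04996%), and outside the keratinocyte limit it (0.0547% to 0.249%) lay above IMQ+SHP099 replicate 2 (up to 0.0532%) and overlapped replicate 1 (up to 0.122%). IMQ replicate 2 overlapped both on every denominator. A barcode counts only if an Xcr1 molecule was caught, so fewer cells and less Xcr1 RNA in each cell cannot be told apart. After thinning every barcode to 3000 UMIs the shares of MHC class II barcodes were 0.990%, 7.93%, 2.19%, 0.508%, 0% and 0% in the order above. Intervals and limits cover counting error only.

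**Figure D1:**
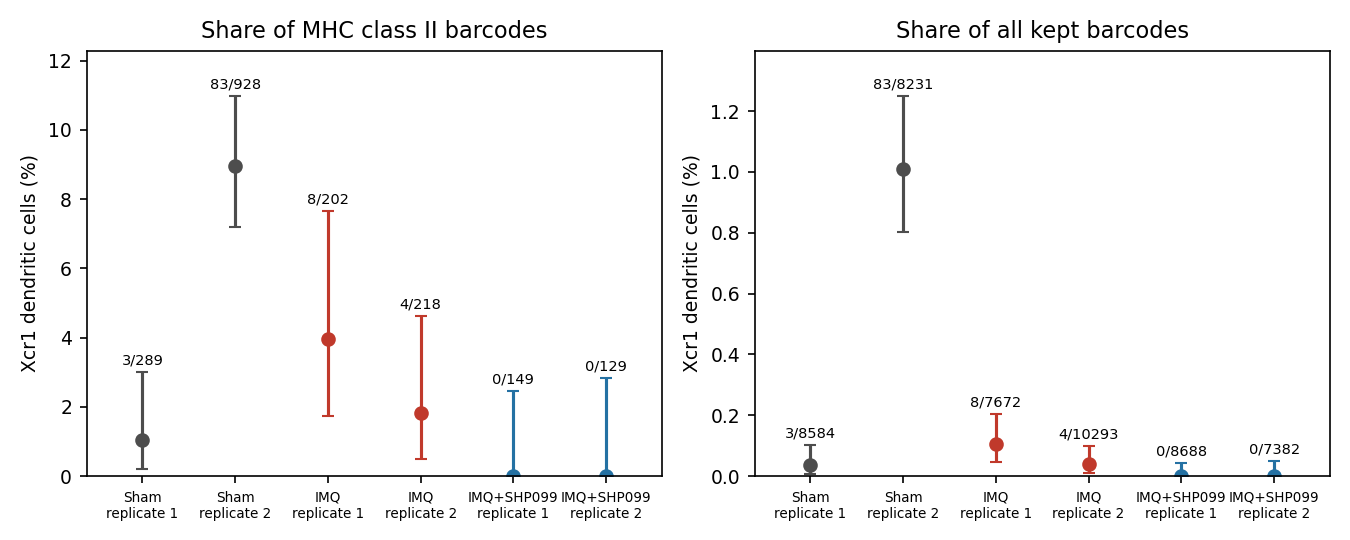
Share of Xcr1 dendritic cells in each library, as a percentage of MHC class II barcodes (left) and of all kept barcodes (right), with exact 95% binomial intervals (bars) and the counts above them. Sham replicate 2 (8.94% and 1.01%) lies above the other 5 libraries on both scales, and the IMQ+SHP099 libraries are at 0.

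The edges of the rule were examined in every library. Xcr1 was found in 7, 93, 12, 5, 4 and 0 kept barcodes of the libraries in the same order, with 10, 481, 28, 7, 4 and 0 UMIs. Every Xcr1 barcode among the MHC class II barcodes was a member. Of the 23 kept Xcr1 barcodes that were not members, 15 lay below the MHC class II limit, the highest at 2.63 UMIs per 10000, and 8 exceeded the keratin limit, the lowest at 72.1 per 10000. Cd3e was found in 6 of the 23, and some failed more than 1 limit. The 4 Xcr1 barcodes of IMQ+SHP099 replicate 1 were all among the 8 with keratin.

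The number of Xcr1 molecules in a cell also mattered. Among the members, 22 rested on 1 Xcr1 UMI and 76 had 2 or more. The cells with 1 Xcr1 UMI held a median of 45 UMIs (2 to 92) of the other 4 cDC1 genes of the rule, and the cells with 2 or more held 68 (23 to 156). Itgae was found in 8 of the 22 and in 54 of the 76, and Cd207 in 6 and 62.

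Cells of this kind can be missed when Xcr1 is not caught. There were 27 MHC class II barcodes with Clec9a, the receptor for dead-cell actin, that met the sum of cDC1 genes and had no Xcr1: 3, 3, 6, 10, 0 and 5 in the libraries in the order above. Of them 16 held Batf3, 6 held Itgae, 1 held Cd207 and 6 held Siglech, a gene of plasmacytoid dendritic cells. Counting them with the members brought the shares of MHC class II barcodes to 2.08%, 9.27%, 6.93%, 6.42%, 0% and 3.88%, and the difference of IMQ from Sham to 1.00 points (exact permutation p = 1).

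The label was checked on markers that the rule did not use. Irf8 was found in 97 of the 98 cells, Naaa in 97, Wdfy4 in 94 and Clec9a in 61, but these 4 genes chose the cells and say nothing of the label. Among genes outside the rule, Ppt1, a lysosomal thioesterase, was found in 95 cells, Id2, a transcription factor of the cDC1 lineage, in 95, Cd24a in 88, Cadm1, an adhesion molecule that marks cDC1 across species, in 74, Batf3 in 73, Flt3, the growth factor receptor of dendritic cells, in 73, Cd207 in 68 and Itgae in 62. Several defining genes of other lineages were in few cells: Csf1r, C1qa and C1qb were each found in 3 cells, Cd209a in 8, Sirpa in 13, Siglech in 5, and 6 of 10 T and NK cell genes, 5 of 7 neutrophil genes and 4 of 6 B cell genes were at 0 in all members. Cd3e is 1 of these 6 T and NK cell genes, and its 0 was set by the rule. Siglech was less rare in IMQ: it was in 0 of 3 and 2 of 83 Sham cells and in 1 of 8 and 2 of 4 IMQ cells. Other markers were common. Of 13 macrophage and monocyte genes 2 were in over 50% of the cells, Lyz2 in 90 cells and Cd68 in 77, against 65.9% and 53.8% of the other MHC class II barcodes. The macrophage sum was 8.44, 17.3, 4.56 and 4.98 UMIs per 10000 in the Xcr1 cells and 29.4, 85.6, 46.0 and 60.5 in the others. Of 8 plasmacytoid dendritic cell genes 2 were at 0 in all members. Among the rest, Bst2 was found in 77 cells and Tcf4 in 43, against 57.1% and 41.2% of the other barcodes. The collagen gene Col1a2 was found in 47 cells, the Schwann cell gene Mbp in 56, the endothelial gene Vwf in 36, Krt5 in 32, Mgl2 in 31 and Epcam in 24, and the shares in the other barcodes were 28.3%, 24.2%, 9.80%, 23.6%, 41.5% and 27.0%. The rule limited Krt5 in both sets. The part of free RNA and depth in these shares was not tested.

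In Sham replicate 2, where a comparison with neighbouring cells has most depth, Itgae was found in 62.7% of the 83 cells, in 0.828% of the 845 other MHC class II barcodes and in 0.475% of 3365 fibroblast barcodes, which served as a measure of free RNA. The median depth was 13798 UMIs in the Xcr1 cells, 6340 in the other MHC class II barcodes and 8633 in fibroblasts. After thinning to 3000 UMIs the Itgae shares were 28.0%, 0.498% and 0.296%. Cd207 was found in 75.9%, 5.33% and 0.149% of the same sets (69.5%, 5.65% and 0.0329% thinned), and Cadm1 in 78.3%, 6.51% and 5.62% (45.1%, 4.65% and 2.37% thinned). The order of the sets was the same with and without thinning for these 3 genes.

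The genes Csf1r, Sirpa and Mgl2 ran the other way in Sham replicate 2. Csf1r, the macrophage growth factor receptor, was found in 3.61% of the Xcr1 cells and 57.99% of the other MHC class II barcodes, with 7.04% in fibroblasts. Sirpa was found in 13.3% of the Xcr1 cells against 75.3% of the others, and Mgl2 in 34.9% against 73.7%.

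**Figure D2:**
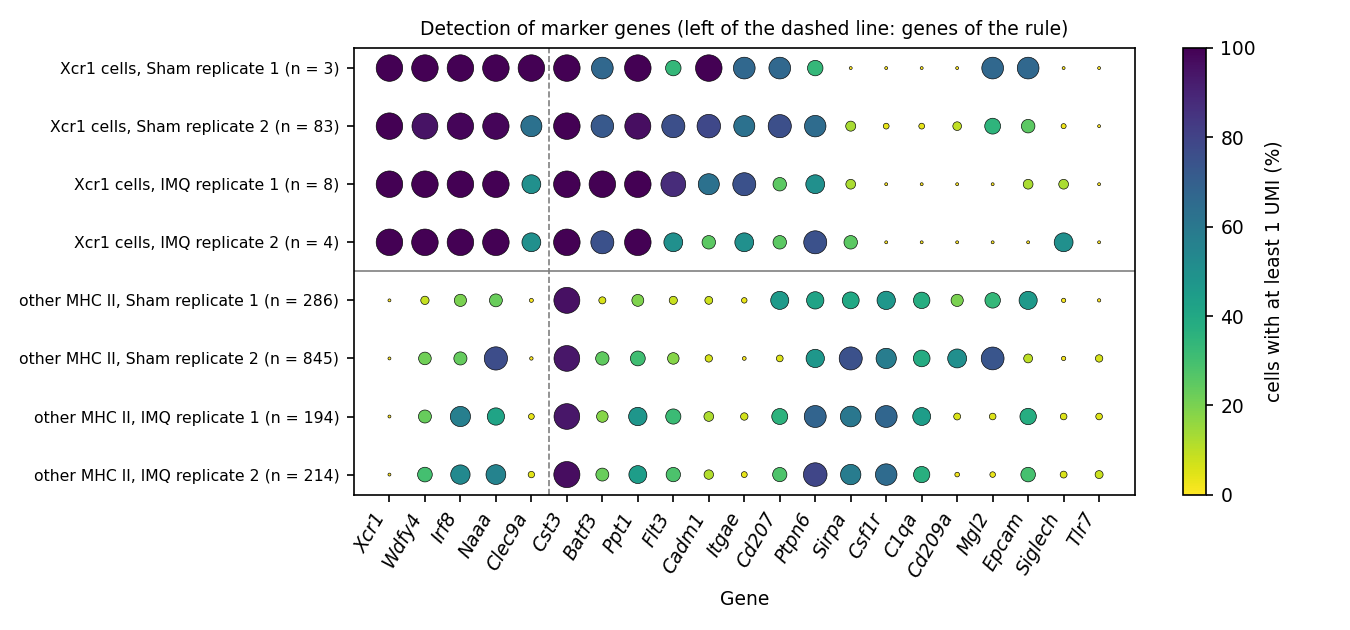
Share of cells with at least 1 UMI of each gene (colour and dot area), for the Xcr1 cells and the other MHC class II barcodes of the 4 libraries with members. Genes left of the dashed line chose the cells, while Batf3, Ppt1, Cadm1 and Itgae did not. In Sham replicate 2 Itgae was found in 62.7% of the Xcr1 cells and 0.828% of the others, and Csf1r in 3.61% and 57.99%.

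Levels of the identity genes varied across libraries within the Xcr1 cells. Xcr1 itself stood at 1.06, 3.72, 1.68 and 1.11 UMIs per 10000 in Sham replicates 1 and 2 and IMQ replicates 1 and 2. Naaa, a lysosomal amidase, stood at 2.64, 21.0, 17.7 and 9.60 per 10000 in the same order, and Irf8 at 11.4, 16.1, 17.3 and 9.97. Itgae stood at 1.23, 1.87, 1.33 and 3.51 per 10000 in the Xcr1 cells, while the other MHC class II barcodes of the 6 libraries had 0.16 or less. Batf3 stood at 0.53, 1.24, 2.52 and 3.32 per 10000, higher in each IMQ library than in either Sham library. Cadm1 stood at 1.93, 2.07, 0.70 and 0.37 per 10000, lower in each IMQ library than in either Sham library. The sum of the 20 cDC1 identity genes was 36.2, 76.7, 71.4 and 62.4 per 10000 in the Xcr1 cells and 10.8, 17.2, 21.0 and 19.5 in the other MHC class II barcodes of those libraries. The sum includes Xcr1, Wdfy4, Irf8, Naaa and Clec9a, which chose the cells. The gap was therefore set in part by the rule and says nothing of the label.

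Genes that set the 83 Xcr1 cells of Sham replicate 2 furthest above the other MHC class II barcodes were taken as a description, since the cells were chosen by their RNA. The 25 leading genes included Itgae (log2 ratio 4.25), Ifi205 of the interferon-inducible p200 family (3.42), the actin-binding drebrin gene Dbn1 (3.37), Cadm1 (3.32), Ppt1 (3.08), the secreted nuclease gene Dnase1l3 (2.96), the cystatin C gene Cst3 (2.61), the stem cell factor receptor gene Kit (2.60) and Havcr2, which encodes TIM-3 (2.36). Ifi205 was found in 76 of the 83 cells, Ppt1 in 80 and Havcr2 in 69. Havcr2 stood at 1.54 UMIs per 10000, close to the 1.13 of Langerhans barcodes of that library. It was lower in the Xcr1 cells than in the others in Sham replicate 1 (0.70 against 1.57) and IMQ replicate 2 (0.923 against 0.953). In IMQ replicate 1 it was higher (1.68 against 1.03). Cst3 stood at 212 UMIs per 10000 against 34.6, and it is also high in other dendritic cells, with 95.6 in Ccr7 mature barcodes and 91.6 in Langerhans barcodes of that library.

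Not every leading gene was a trait of the whole set. Of the 25, 17 were found in over 50% of the cells, while Il12b, Elovl4 and Scd1 each drew most of their UMIs from 1 cell. The 25 genes furthest below the other barcodes included Retnla, a gene of alternatively activated macrophages, with 0 UMIs against 10339, the neutrophil chemokine gene Cxcl2 with 4 against 7109, C1qb with 4 against 3768 and the mannose receptor gene Mrc1 with 15 against 4155.

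The same 50 genes were then read in the 3 libraries that had not been used to rank them. Of the 25 genes higher in Sham replicate 2, 19 of 25 were higher in the Xcr1 cells of Sham replicate 1, 23 of 25 in IMQ replicate 1 and 17 of 24 with a UMI in IMQ replicate 2. Over all genes with a UMI the shares that were higher were 25.8%, 34.8% and 24.5%. The lower genes were lower in 25 of 25, 23 of 23 and 24 of 24, where 74.2%, 65.2% and 75.5% of all genes were lower, since few cells leave many genes at 0. To be ranked, higher genes needed at least 50 UMIs in the Xcr1 cells and lower genes at least 200 in the other barcodes. The shares over all genes had no such limit, so the sets differ in abundance, and its part was not tested.

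Compared with the 3 most similar sets of Sham replicate 2, the Xcr1 cells held RNA of both the integrin and langerin. Cd207 stood at 7.09 UMIs per 10000 in the Xcr1 cells, 27.4 in 24 Langerhans barcodes, 0.319 in 14 Ccr7 mature barcodes and 0 in 367 barcodes with Cd209a and Mgl2. Itgae stood at 1.87 per 10000 in the Xcr1 cells, 0 in the Langerhans and the Ccr7 mature barcodes and 0.0340 in the Cd209a and Mgl2 barcodes. Epcam, an adhesion gene of Langerhans cells, stood at 0.42 per 10000 in the Xcr1 cells and 8.97 in the Langerhans barcodes. The Langerhans barcodes were chosen by Cd207 and Epcam, and the Cd209a and Mgl2 barcodes had to hold 0 UMIs of Cd207. The levels of these genes in those sets were set by that choice, so the gaps to the Xcr1 cells are no result.

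The Xcr1 cells of Sham replicate 2 were not uniform for these surface genes. Of the 83 cells, 49 held both Itgae and Cd207, 14 Cd207 alone, 3 Itgae alone and 17 neither. The median depth was 14682 UMIs in the cells with both genes and 12937 in those with neither. By cell, Cd207 ran from 0 to 61 UMIs with a median of 8. In the other libraries Cd207 was found in 2 of 3, 2 of 8 and 1 of 4 cells, with 38 of the 39 UMIs of IMQ replicate 1 in 1 cell, and Itgae in 2 of 3, 6 of 8 and 2 of 4.

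**Figure D3:**
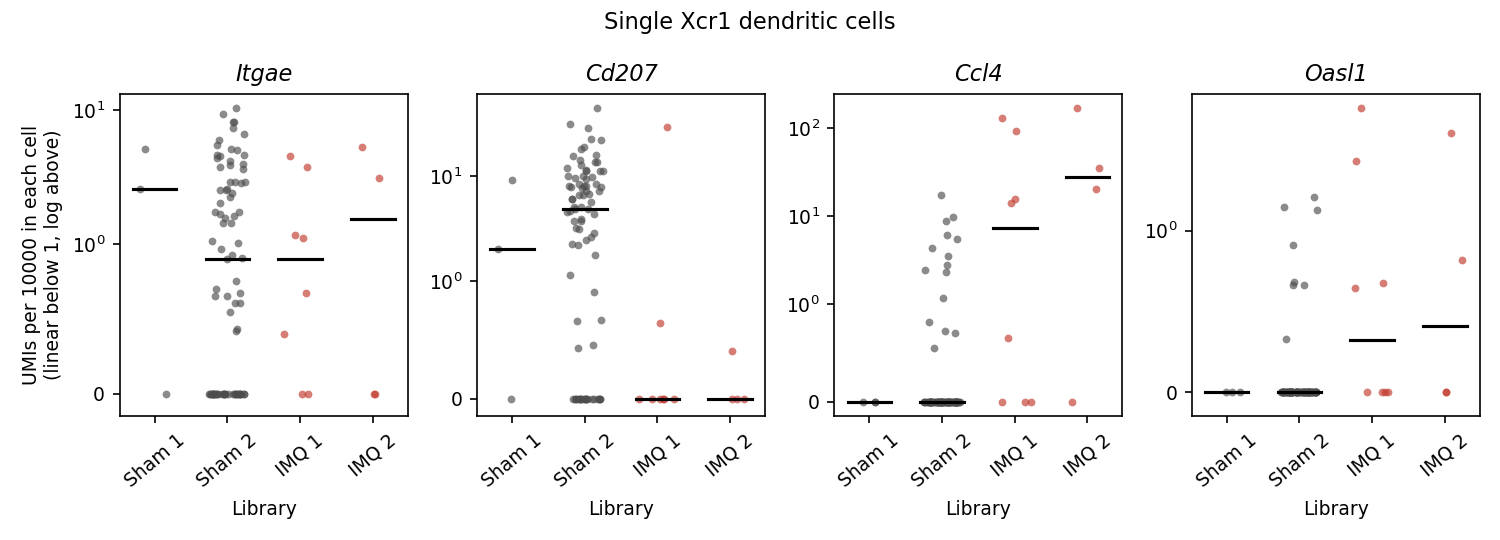
UMIs per 10000 of 4 genes in each Xcr1 cell by library (points, with the median as a line), on an axis that is linear below 1 and logarithmic above. Cd207 is found in 63 of 83 cells of Sham replicate 2 and in 3 of the 12 IMQ cells, and the high Ccl4 values of IMQ come from a few cells.

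Genes that present antigen were abundant in the Xcr1 cells. The sum of 12 MHC class II pathway genes was 470, 592, 494 and 685 UMIs per 10000 in the 4 libraries, but its largest members were part of the rule. Among genes the rule did not use, H2-Eb1 stood at 67.5, 94.8, 79.3 and 115 per 10000. The cathepsin S gene Ctss, which trims the invariant chain, stood at 3.52, 4.27, 5.47 and 8.31 in the Xcr1 cells and 9.88, 12.3, 11.1 and 10.9 in the other MHC class II barcodes, so all 4 libraries had less in the Xcr1 cells. The lysosomal protease gene Lgmn stood at 0, 0.17, 0.14 and 0.55 per 10000 against 2.52, 4.10, 2.24 and 2.64.

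On the class I side, the peptide transporter gene Tap1 stood at 1.23, 2.54, 2.31 and 1.48 UMIs per 10000 in the Xcr1 cells and 0.91, 1.11, 0.95 and 1.01 in the other barcodes. The proteasome activator gene Psme1 stood at 6.16, 6.49, 7.01 and 8.31 against 3.36, 2.86, 2.98 and 3.42. Both genes were higher in the Xcr1 cells in all 4 libraries, which did not hold for the list: the sum of 20 class I and cross-presentation genes was 61.6, 99.6, 77.2 and 104 UMIs per 10000 in the Xcr1 cells against 80.9, 96.5, 65.5 and 75.9. Of the 20, 13 were higher in the Xcr1 cells of Sham replicate 2, where 40.2% of 12194 genes were. The list includes Wdfy4, a gene of the rule, which was left in the sum and in the count. Cybb, the NADPH oxidase subunit of phagosomes, was found in 3 of the 98 cells, at 0.08 per 10000 or less in each library against 0.98 to 3.78 in the others.

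No RNA of the receptor that imiquimod activates was found in the Xcr1 cells. Tlr7 (chrX:167304929-167330558, minus strand) was found in 0 of the 98 cells, and Tlr8 also in 0. In Sham replicate 2 Tlr7 was found in 0 of 83 Xcr1 cells and 6.63% of 845 other MHC class II barcodes, with 0% in fibroblasts. The count of 0 bears on cells with a Tlr7 UMI and not on cells that make the protein.

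Some other sensors of the endosome were found, while Tlr9 was in 3 of the 98 cells and Tlr13 in 1. Tlr11 was found in 36 of the 98 cells and 2.0% of the other MHC class II barcodes, Tlr12 in 24 cells and 0.5%, and Tlr3, the receptor for double-stranded RNA, in 22 cells and 3.1%. Fibroblasts also held Tlr3, in 9.39% of the barcodes of Sham replicate 2, against 19.3% of its Xcr1 cells. Thinned to 3000 UMIs these shares were 3.75% and 6.10%, with 1.33% in the other MHC class II barcodes. Whether the Tlr3 of fibroblasts was free RNA or their own was not tested. Tlr11 and Tlr12 recognise profilin of protozoa in mice, and fibroblasts of all 6 libraries together held 1 Tlr11 UMI and 2 Tlr12 UMIs. The trafficking gene Unc93b1 was found in 78 cells. Of 23 genes of Toll-like receptors and nucleic acid sensing, 5 were higher in the Xcr1 cells of Sham replicate 2, where 40.2% of 12194 genes were.

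SHP2, the target of SHP099, was detected in the Xcr1 cells at a low level. Ptpn11 (chr5:121130533-121191397, minus strand) was found in 44 of the 98 cells, at 0.70, 0.48, 0.28 and 0 UMIs per 10000 in Sham replicates 1 and 2 and IMQ replicates 1 and 2. In Sham replicate 2 it was found in 45.8% of the Xcr1 cells, 24.4% of the other MHC class II barcodes and 40.9% of the fibroblasts, and after thinning in 10.98%, 10.96% and 16.3%, so the deeper Xcr1 cells did not stand above the others at equal depth. Ptpn6, the gene of the related phosphatase SHP1 of blood cells, was found in 62 of the 98 cells, at 0.35, 0.86, 0.63 and 0.92 per 10000 against 1.54, 1.25, 2.14 and 2.69 in the other barcodes. Sirpa, a surface receptor that recruits both phosphatases, stood at 0.18 or less in the Xcr1 cells of every library and at 0.85 or more in all 6 sets of other barcodes. The sum of the 20 genes of this pathway was 4.57, 6.76, 4.14 and 4.80 per 10000 against 10.2, 12.9, 11.5 and 12.3, lower in the Xcr1 cells in all 4 libraries. The effect of SHP099 on these genes within Xcr1 cells could not be measured, because no library of that group held such a cell.

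Cell cycle genes were high in a share of the cells. A UMI of Mki67 or Top2a was found in 1 of 3, 40 of 83 (48.2%), 3 of 8 (37.5%) and 1 of 4 (25%) Xcr1 cells and in 17.5%, 18.8%, 20.6% and 16.8% of the other MHC class II barcodes of those libraries. In Sham replicate 2, Mki67 was found in 41.0% of the Xcr1 cells, 13.0% of the others and 9.15% of fibroblasts, and after thinning to 3000 UMIs in 19.5%, 8.47% and 5.79%. The gap narrowed with equal depth and kept its order. The cells with a Mki67 or Top2a UMI had a median depth of 15554 UMIs and the others 12737. No state of division was read from these genes alone.

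The sum of 27 cell cycle genes was 28.0, 80.8, 84.0 and 121 UMIs per 10000 in the Xcr1 cells against 46.3, 46.3, 43.0 and 40.5 in the other barcodes. It was higher in the Xcr1 cells in 3 of the 4 libraries, with Sham replicate 1 as the exception. In Sham replicate 2, 26 of 27 cell cycle genes were higher in the Xcr1 cells, where 40.2% of 12194 genes were. By single cell the sum ran from 12.7 to 246 with a median of 54.1 in that library, and the medians of the IMQ libraries were 55.6 and 49.6.

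**Figure D4:**
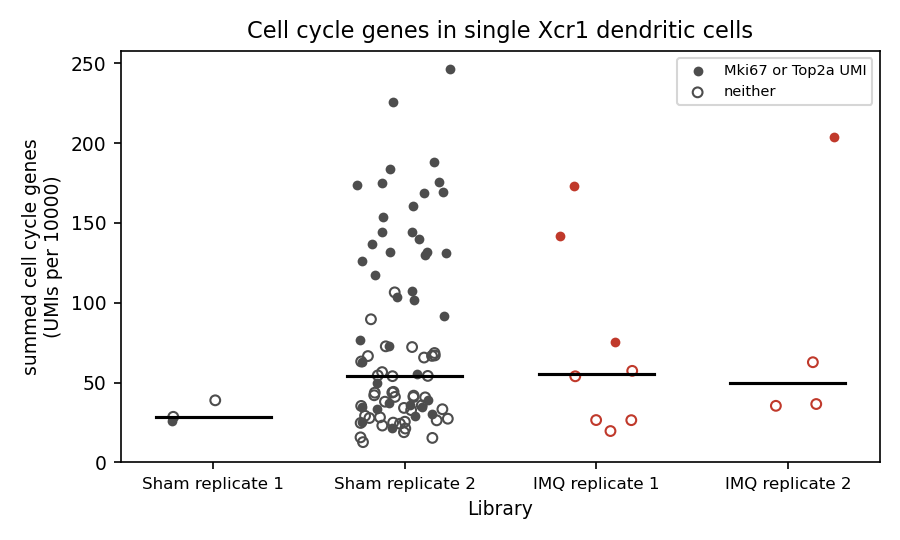
Sum of 27 cell cycle genes in each Xcr1 cell by library, in UMIs per 10000, with the median as a line. Filled points hold a UMI of Mki67 or Top2a: 40 of 83 in Sham replicate 2 and 4 of 12 in IMQ.

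Maturation genes differed in how often they were found. The sum of 22 of them was 24.3, 22.1, 9.39 and 15.1 UMIs per 10000 in the Xcr1 cells and 24.5, 37.0, 26.7 and 28.2 in the other barcodes, so Sham replicate 1 was about level and the other 3 libraries had less in the Xcr1 cells. Ccr7, the receptor that guides dendritic cells to lymph nodes, was found in 10 of the 98 cells and Fscn1, an actin bundler of mature dendritic cells, in 4. A cell of Sham replicate 2 with 14705 UMIs held 90 UMIs of Ccr7, 18 of Fscn1, 94 of the chemokine gene Ccl22, 78 of Ccl5 and 85 of Il12b, the p40 subunit of IL-12 and IL-23. It held 1 Xcr1 UMI and 10 Irf8 UMIs, and 0 of Naaa, Wdfy4, Clec9a, Itgae and Cd207. A cell of Sham replicate 1 with 39316 UMIs held 14 UMIs of Ccr7. The 82 other cells of Sham replicate 2 together held 27 Ccr7 UMIs in 7 cells, 2 Ccl5 UMIs in 2 and 1 Il12b UMI in 1. The cell with 90 Ccr7 UMIs carried 85 of the 86 Il12b UMIs of all members.

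Il12a, Il23a, Il27 and Ifnb1 were at 0 in all 98 cells, and Ifit1 was the only 1 of 29 interferon-stimulated genes at 0 in all of them. The costimulatory gene Cd86 was found in 85 cells, Cd83 in 82 and Traf1, a TNF receptor adaptor, in 73, or 86.7%, 83.7% and 74.5% of the members against 52.2%, 63.2% and 44.7% of the other MHC class II barcodes, with the members being deeper. The sum of 29 interferon-stimulated genes was 5.63, 14.3, 19.6 and 27.9 UMIs per 10000 in the Xcr1 cells against 29.1, 29.3, 27.9 and 37.1 in the other barcodes. Both IMQ libraries were above both Sham libraries in the Xcr1 cells, and all 4 Xcr1 sums were below the others.

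A cell of Sham replicate 1 carried genes of another kind. It had 39316 UMIs, the highest of all members, out of 56857 for the 3 cells of that library, with 189 UMIs of the epithelial gene Ly6d, 94 of BC100530 and 16 of the stefin gene Stfa1. The differentiation keratins Krt1 (384 UMIs) and Krt10 (556 UMIs) were each found in 1 of those 3 cells. The sum of 10 keratinocyte markers was 213 UMIs per 10000 in the Xcr1 cells of Sham replicate 1 against 4.17, 1.47 and 0.92 in the other libraries, and its part in the results was not tested. No doublet caller was run. A barcode was instead counted as mixed when it had at least 5 UMIs of 8 genes of fibroblasts, T cells, macrophages and neutrophils together, which held for 1, 8, 0 and 0 of the members in the 4 libraries.

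IMQ was compared with Sham inside the Xcr1 cells on UMIs summed per library, with edgeR's quasi-likelihood test. Of 1334 genes tested, 0 passed an adjusted p of 0.05, which is 0% of the background, and the smallest adjusted p was 0.132. At an unadjusted p under 0.05 there were 105 genes, 27 higher and 78 lower in IMQ, and DESeq2 called 6 genes on the same sums. The groups did not overlap in 514 of the 1334 genes (38.5%). The sums of Sham replicate 1 and IMQ replicate 2 rested on 3 and 4 cells, with 56857 and 54180 UMIs, against 1204736 for Sham replicate 2, so the smaller sums set the precision of each comparison.

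The 6 genes with the smallest unadjusted p did not pass the test and are given as values. Ccl4 (chr11:83662584-83664683, plus strand), which encodes an inflammatory chemokine, stood at 0 and 0.75 UMIs per 10000 in Sham and at 32.2 and 88.6 in IMQ (log2 fold change 6.59, SE 0.92, edgeR adjusted p = 0.132). Both IMQ libraries lay above both Sham libraries. The UMIs came from few cells: 0 of 3 and 15 of 83 Sham cells held Ccl4, against 5 of 8 and 3 of 4 IMQ cells. In IMQ replicate 1 the top cells held 239 and 171 of 459 UMIs, and in IMQ replicate 2 they held 409 and 67 of 480. Fibroblasts held Ccl4 in 0.453%, 3.36%, 1.90% and 2.69% of their barcodes in the same libraries, and their median depths were 5354, 8633, 9284 and 9698 UMIs.

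Oasl1, an interferon-stimulated gene that acts on IRF7 translation, stood at 0 and 0.11 UMIs per 10000 in Sham and at 1.68 and 2.03 in IMQ (log2 fold change 4.03, SE 0.65, edgeR adjusted p = 0.185). It was found in 0, 8, 4 and 2 cells, and 18 of the 24 UMIs of IMQ replicate 1 lay in 1 cell. Plac8 stood at 27.7, 27.0, 165 and 250 CPM, counts over library size as edgeR scales them, with a log2 fold change of 2.86 (SE 0.58, edgeR adjusted p = 0.268). Each of these genes was higher in both IMQ libraries than in both Sham libraries.

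On the lower side, Dnase1l3 stood at 194, 264, 16.5 and 0 CPM (log2 fold change -4.33, SE 0.79, edgeR adjusted p = 0.185). Mgl2, a galactose-type lectin gene, had 163 UMIs in the Sham cells and 0 in the IMQ cells, at least 8.48-fold lower at a limit of 3 counts over the IMQ cells. Elovl4, a fatty acid elongase gene, had 177 and 0 UMIs, at least 9.21-fold lower, but 156 of those UMIs came from 1 cell of Sham replicate 2. The other MHC class II barcodes also had less Mgl2 in IMQ, with 4.79 and 11.6 UMIs per 10000 in Sham and 0.06 and 0.21 in IMQ. They held 55 and 367 Cd209a and Mgl2 barcodes in Sham and 8 and 2 in IMQ. In them, fewer such cells and less Mgl2 in each cell cannot be told apart.

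**Figure D5:**
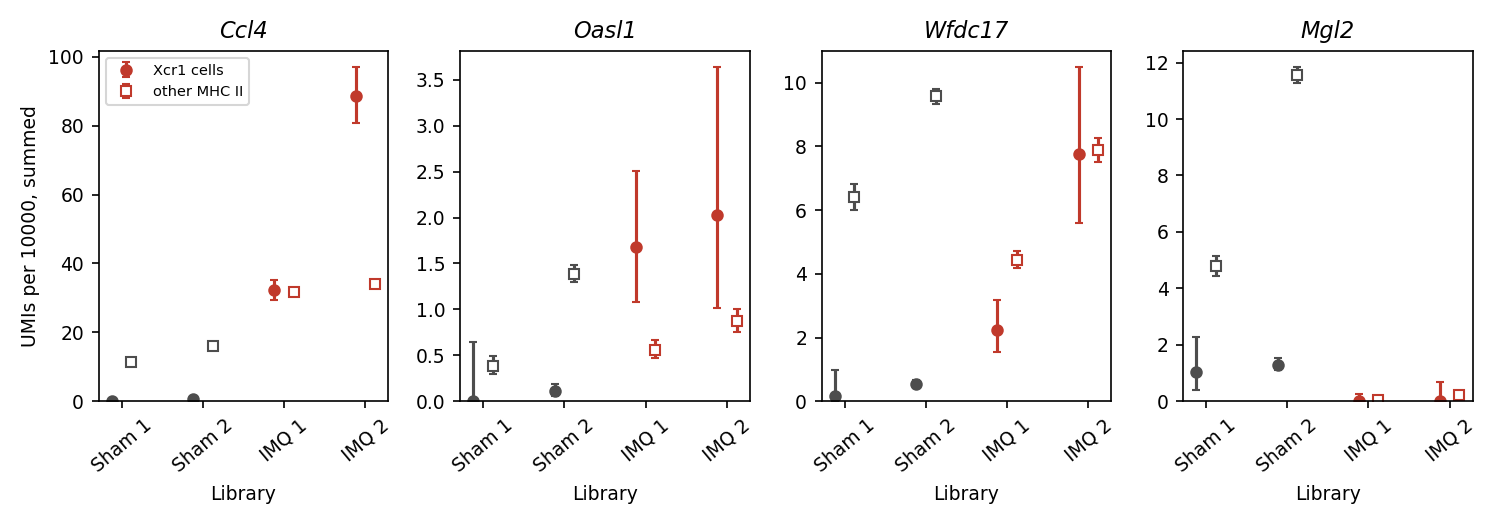
Summed levels of 4 genes in the Xcr1 cells (filled) and the other MHC class II barcodes (open) of the 4 libraries with members, in UMIs per 10000 with exact 95% Poisson intervals (bars). Ccl4 stands at 0 and 0.75 in the Sham Xcr1 cells and at 32.2 and 88.6 in IMQ, while the other barcodes run from 11.5 to 34.1.

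The fixed gene lists had no member that passed the test in either direction. Of the 20 cDC1 identity genes 8 were tested, 6 with a positive log2 fold change and a median of 0.25, including Batf3 (1.31, edgeR adjusted p = 0.584) and Cadm1 (-2.01, adjusted p = 0.308). All 4 tested interferon-stimulated genes were positive, with a median of 1.30, led by Oasl1 and by Ifitm3 (2.16, adjusted p = 0.283), which blocks virus entry. Of the 8 tested cell cycle genes 8 were positive with a median of 0.71, and of the 11 tested mitochondrial genes 0 were positive with a median of -0.56. Over all 1334 genes 602 were positive, and the median was -0.07.

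Of the 13 tested class I and cross-presentation genes 6 were positive, with a median of -0.01 and the immunoproteasome gene Psmb8 at 1.05 (edgeR adjusted p = 0.585). Of 17 dissociation genes 5 were positive (median -0.41), and of 10 glycolysis genes 7 (median 0.23). Of 5 cytokine genes 2 were positive, with the interferon-induced chemokine gene Cxcl10 at 2.90 (edgeR adjusted p = 0.275) and Il1b at -2.73 (adjusted p = 0.475). The 2 tested genes of the SHP2 list had a median of -0.75, and Ptpn11 was too low to be tested.

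The effect of IMQ in the Xcr1 cells was then set against its effect in the other MHC class II barcodes of the same 4 libraries, by an interaction term in edgeR with the library as a block. The make-up of the other barcodes differed: 55 of 286 and 367 of 845 in Sham were Cd209a and Mgl2 barcodes, against 8 of 194 and 2 of 214 in IMQ. Langerhans barcodes numbered 115 and 24 in Sham and 58 and 52 in IMQ. A change of cell types and a change within cells cannot be told apart in this comparison. Of 9502 genes, 24 passed (0.253% of the background), with the IMQ effect higher in the Xcr1 cells for 5 and lower for 19. With 1 library left out the count ran from 2 (without IMQ replicate 1) to 74 (without Sham replicate 1), being 4 without IMQ replicate 2 and 73 without Sham replicate 2, and without mixed barcodes 15 of 24 calls were higher. Of the Sham UMIs of the Xcr1 cells, Sham replicate 1 held 94 of 95 for BC100530, 16 of 17 for Stfa1, 190 of 223 for Ly6d and 768 of 1052 for the epithelial lectin gene Lgals7, which are among the 19 lower genes, and for the first 3 of them 1 cell held 94, 16 and 189 of these. Among the 5 higher genes, Apod had 14 and 0 UMIs in the Xcr1 cells of IMQ replicates 1 and 2, and Igfbp6 had 70 and 1. Both genes overlapped between the groups. Of the 24, 8 met the rule for named genes. The spread was taken wholly from the trend over genes, on 2 residual degrees of freedom, so the adjusted p-values of this test may be too small. The median difference over all genes was -0.23 on the log2 scale.

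Ccl4 had the smallest p of the 24. The IMQ effect was higher in the Xcr1 cells by 5.50 on the log2 scale (SE 0.50, edgeR adjusted p = 2.00e-24), since the other barcodes held 11.5 and 16.2 UMIs per 10000 in Sham and 31.7 and 34.1 in IMQ. The Xcr1 cells were below them in Sham, level in IMQ replicate 1 and above them in IMQ replicate 2. Oasl1 differed by 4.99 (SE 0.92, edgeR adjusted p = 9.59e-05), with 0.39 and 1.39 per 10000 in the other barcodes of Sham and 0.56 and 0.87 in IMQ. Wfdc17 (chr11:83703991-83706268, plus strand), a whey acidic protein family gene on the same chromosome as Ccl4, stood at 0.18, 0.53, 2.24 and 7.75 per 10000 in the Xcr1 cells and 6.40, 9.57, 4.44 and 7.88 in the others, a difference of 3.72 (SE 0.65, adjusted p = 2.53e-05). Its UMIs also came from few cells: the top cells of IMQ replicate 1 held 16 and 8 of 32, and 1 cell of IMQ replicate 2 held 41 of 42.

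The 5 named genes with a lower IMQ effect in the Xcr1 cells had 0 or 1 UMI in the 12 IMQ cells together, while the other barcodes held many. Saa3, an acute-phase gene, had 2922 and 2515 UMIs in the other barcodes of the IMQ libraries, 0 and 8 in Sham, and in the Xcr1 cells 0, 2, 0 and 0. Rbp4, the retinol carrier, had 1552 and 1164 UMIs in the other barcodes of IMQ and 0 in the Xcr1 cells of IMQ. Ly75, the endocytic receptor DEC-205, had 48 UMIs in 32 Xcr1 cells of Sham replicate 2 and 0 in the other 3 libraries. Zmynd15 had 4, 52, 1 and 0 UMIs in the Xcr1 cells and 67, 86, 696 and 604 in the others, and the kinase gene Pim3 had 3, 60, 0 and 0 against 218, 833, 498 and 367. The edgeR adjusted p was 0.0067 for Saa3, 0.00257 for Rbp4, 0.0186 for Ly75, 0.0441 for Pim3 and 4.51e-07 for Zmynd15. The fitted differences of genes with a 0 depend on the prior count, and 3 counts over the 12 IMQ cells come to 0.152 UMIs per 10000.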

How the data were processed

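UMI counts per gene and barcode were made by the authors with Cell Ranger against GRCm38 (mm10) and deposited unnormalized for 6 libraries of 10x Genomics 3′ RNA sequencing, with 31053 genes. Barcodes were filtered and chosen by the rule in the report with Python 3.11.15 (numpy 2.4.6, scipy 1.17.1, pandas 2.3.3, matplotlib 3.10.9). The members and gene lists (382 of 386 listed genes found) were chosen with earlier results of these data known. Levels are UMIs per 10000, summed over cells of a library. Intervals are 95% Clopper-Pearson or exact Poisson, with a floor of 3 counts. Sums of members per library were tested with edgeR 4.0.16 (limma 3.58.1, R 4.3.3; quasi-likelihood, TMM, filterByExpr, Benjamini-Hochberg over all genes tested), and CPM is counts over the TMM-scaled library size. Both IMQ+SHP099 libraries held 0 members, so they entered no fit and the planned tests with them were not run. Named genes passed the adjusted p of 0.05, averaged 20 CPM or more and did not overlap between groups (12 per direction, 5 for the interaction), or else were the 6 with the smallest p, besides the markers, Ptpn11, Tlr7 and list genes. DESeq2 1.42.0, other size factors, filters, cell rules, thinning and left-out libraries were alternatives. Scripts were tested on simulated data. Coordinates are from GENCODE vM21.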

Additional observations from a re-analysis of the deposited data

Results flagged for a closer look

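The 8 genes below were picked out because the effect of IMQ differed between the Xcr1 cells and the other MHC class II barcodes of the same libraries, by edgeR's interaction test. On the log2 scale the difference was 5.50 for Ccl4, 4.99 for Oasl1 and 3.72 for Wfdc17, each higher in the Xcr1 cells. It was -14.37 for Saa3, -11.27 for Rbp4, -11.19 for Ly75, -9.98 for Pim3 and -7.27 for Zmynd15, each lower in the Xcr1 cells.

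The Ccl4 difference passed the threshold in all 9 alternatives run, with a highest edgeR or DESeq2 adjusted p of 0.00114. The call was lost in 4 of 9 for Oasl1, 2 for Wfdc17, 3 for Saa3, 6 for Rbp4, 6 for Ly75, 7 for Pim3 and 2 for Zmynd15. In the IMQ libraries 89.3% and 99.2% of the Ccl4 UMIs of the Xcr1 cells lay in 2 cells each, and the 5 genes with negative differences had 0 or 1 UMI in the 12 IMQ cells. The part of single cells, and of the changed make-up of the other barcodes, in these differences was not tested.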

How the results depend on the processing

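The share of Xcr1 cells was lower in both IMQ+SHP099 libraries than in IMQ under all 11 alternatives on each of the 3 denominators. Both IMQ+SHP099 libraries started at 0, so alternatives that only removed cells or libraries could not reverse this. Cells could be added by Xcr1 or Clec9a as the rule, no keratin limit and all deposited barcodes. These gave -4.74, -2.59 and -2.61 points of MHC class II barcodes. Leaving out 1 library moved the difference of IMQ+SHP099 from IMQ from -3.96 to -1.83 points of MHC class II barcodes, -0.104 to -0.0389 of all kept barcodes and -0.127 to -0.0424 outside the keratinocyte limit. For IMQ against Sham the ranges were -6.05 to 1.86, -0.937 to 0.0366 and -1.11 to 0.00451, each positive only without Sham replicate 2, and the difference was also positive, 1.00 points, with Xcr1 or Clec9a as the rule. Alternatives without a keratin limit and with all deposited barcodes were added after seeing the data. Without a keratin limit 1 of 213 barcodes of IMQ+SHP099 replicate 1 counted as a member.

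Genes called for IMQ against Sham numbered 0, but 6 with DESeq2, 1 with RLE size factors, 59 of 13309 with no filter on low counts, 12 without mixed barcodes, 3 of 238 after thinning and 20 to 113 with 1 library left out, where the lone library is assumed to vary like the other group. It was 113 without Sham replicate 2, 96 without Sham replicate 1, 36 without IMQ replicate 2 and 20 without IMQ replicate 1. Ccl4 passed in 9 of 11 alternatives. Fitting only the compared groups gave the reported fit.

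Genes called for the interaction numbered 24, but 11 with no filter, 7 with at least 2 Xcr1 UMIs, 5 with DESeq2 and 2 to 74 with 1 library left out (74 without Sham replicate 1, 73 without Sham replicate 2, 2 without IMQ replicate 1, 4 without IMQ replicate 2). Without mixed barcodes 24 were called, 15 of them higher instead of 5. The cause of these changes was not tested.

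With the replicate number as a block, 0 genes were called for IMQ against Sham by edgeR (90 at an unadjusted p under 0.05). The labels do not say that numbers pair libraries, and the deviations of same-numbered libraries had a correlation of 0.0532 over 1341 genes.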
